A study of Rattus norvegicus with 40 samples.

Results

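The genes described here encode proteins of the extracellular matrix and the cells that lay it down. They are the fibrillar collagen chains Col1a1, Col1a2 and Col3a1, fibronectin (Fn1), decorin (Dcn), matrix Gla protein (Mgp), Sparc, the thrombospondins Thbs1 and Thbs2, and the protease inhibitor Timp3. They were chosen by name with earlier results of these data known, so the counts of members below are no support for the choice. Each matched 1 gene model, so that 10 of the 31677 gene models in the deposited tables are members, and 14949 gene models carry a symbol. The cells were T cells of Dahl salt-sensitive (SS) rats, in which dietary salt raises blood pressure, and RNA from 3 pooled rats made up a library. There were 40 libraries, 4 for each of 10 groups. Circulating T cells and kidney T cells were both sampled from 5 groups of rats, which are SS/MCW rats on LS chow at 7 weeks of age, SS/MCW rats on LS chow at 10 weeks, SS/MCW rats at 10 weeks after 3 weeks on HS chow, SS/CRL rats on LS chow at 10 weeks, and SS/CRL rats at 10 weeks after 3 weeks on HS chow. LS and HS stand for low and high salt, and MCW and CRL name the colonies from which the rats came. All groups are SS rats, so no salt-resistant strain stands among them, and colony and any further difference between the colonies cannot be told apart.

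Collagens are secreted as procollagen by fibroblasts and related mesenchymal cells and assemble into fibrils outside the cell. Type I collagen is built from the Col1a1 and Col1a2 chains, and type III collagen from Col3a1 alone. Decorin coats such fibrils, fibronectin links them to integrins on cells, and Sparc and the thrombospondins are matricellular proteins, which sit in the matrix and modulate cell contacts without bearing load. Matrix Gla protein inhibits calcification of soft tissue, and Timp3 binds to the matrix and inhibits metalloproteinases. In the kidney these genes are known for their expression in interstitial fibroblasts, vessel walls and the glomerulus, and several are used as readouts of renal fibrosis. T cells are not a known main source of fibrillar collagen.

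Sequences of the region before the gene start are shown for Thbs1, Timp3 and Sparc, since these members had the highest levels besides Mgp and were called higher in kidney cells in all 5 comparisons with circulating cells. They are the 150 bases before the annotated start in RefSeq on build GRCr8, written 5′ to 3′ in the direction of the gene, and 4 of the 10 members, these and Col1a2, were matched in that table. Capitals mark CCAAT and GGGCGG read on either strand. The Thbs1 window is chr3:125510100-125510249 on the plus strand, the Timp3 window is chr7:19459559-19459708 on the minus strand, and the Sparc window is chr10:40038817-40038966 on the minus strand.
Thbs1: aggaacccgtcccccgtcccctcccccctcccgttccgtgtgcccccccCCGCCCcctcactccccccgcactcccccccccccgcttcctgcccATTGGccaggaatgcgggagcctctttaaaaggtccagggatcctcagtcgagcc
Timp3: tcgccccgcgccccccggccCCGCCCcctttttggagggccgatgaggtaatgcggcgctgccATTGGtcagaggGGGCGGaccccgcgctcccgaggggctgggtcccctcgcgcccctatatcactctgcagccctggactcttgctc
Sparc: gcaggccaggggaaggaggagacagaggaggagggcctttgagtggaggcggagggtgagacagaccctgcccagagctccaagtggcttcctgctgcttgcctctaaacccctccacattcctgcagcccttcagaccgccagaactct

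The Thbs1 and Timp3 windows each held CCAAT once, on the reverse strand, from 55 to 51 bases before the start in Thbs1 and from 87 to 83 bases before it in Timp3. GGGCGG stood once in the Thbs1 window and at 2 places in the Timp3 window. The Sparc window held neither. Searched on both strands in the same window of all 33469 promoters in that table, CCAAT was found in 23.5%, GGGCGG in 26.0%, TATAAA in 8.00% and TGANTCA in 3.69%, and neither of the last pair was found in the 3 windows. The GC content was 71.3% for Thbs1, 72.0% for Timp3 and 62.0% for Sparc, against a median of 52.7% over all windows. A match of letters is a description of the sequence and not a binding site.

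Expression is given as FPKM (fragments per kilobase of transcript, scaled to the mapped fragments of the library), which the authors computed with Cuffdiff, with 1 value per group in each table. A group stands in 2 to 4 of the 15 tables, and its level below is the median over those tables with the lowest and highest of them. That range comes from the same 4 libraries scaled anew and is not a spread between rats; for a member in a kidney group the highest table value was at most 1.17 times the lowest. No value per library, SD or depth is used here. Calls are those of Cuffdiff at a q-value (the p-value adjusted over all gene models tested) under 0.05. Standard errors were derived from the deposited test statistic and are wider than the deposited p-values imply: with a normal p of that statistic, 0 of the member calls between kidney groups or between circulating groups remained.

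The kidney libraries, labelled as T cells, held much less T cell transcript than the circulating ones. All 13 T cell markers were called lower in kidney cells in each of the 5 comparisons, with a median kidney level of 2.72% to 13.2% of the circulating one. Markers of other kidney cells were present beside them. Summed levels in kidney groups were 2195 to 9920 FPKM for 7 proximal tubule markers. They were 1560 to 15287 FPKM for 7 thick limb and distal nephron markers, and 139.3 to 255.8 FPKM for 10 endothelial markers. The summed level of 11 fibroblast and mural markers (the mural cells wrap vessels) was 20.5 to 69.1 FPKM in kidney groups and 8.41 to 10.2 FPKM in circulating groups, and none of the 11 was at 0 in kidney. Of the 8 to 11 of them tested, 3 to 7 were called higher in kidney cells, and 1 was called lower in each of the 3 SS/MCW comparisons. In bulk RNA, fewer cells of a type and less RNA per cell cannot be told apart, and which cells of the kidney libraries carried the matrix transcripts was not tested.

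The fibrillar collagen chains among the members were low in kidney cells, apart from Col3a1 in 1 group, and close to absent from circulating cells. Col1a1 (chr10:82563433-82580363, build rn5 here and for all gene positions below) stood at 0.693 FPKM in kidney cells of SS/MCW rats on LS at 7 weeks, 2.00 on LS at 10 weeks, 0.503 on HS, and in SS/CRL rats at 0.138 FPKM on LS and 0.106 on HS. Its highest circulating level was 0.00449 FPKM, and it was listed at 0 in 3 circulating groups. Col1a2, the partner chain, was at 0.576, 2.81, 0.617, 0.415 and 0.363 FPKM in the same order of kidney groups. Both chains of type I collagen were thus highest in the SS/MCW LS group at 10 weeks, and the ratio of Col1a2 to Col1a1 ran from 0.832 to 3.43 over the kidney groups. For Col1a2, SS/MCW at 7 weeks and on HS overlapped over tables; for Col1a1 no kidney groups did. Col3a1 (chr9:51689491-51725414) was at 0.255, 9.13, 0.476, 0.299 and 0.724 FPKM. In a single kidney group, again SS/MCW LS at 10 weeks, Col3a1 was thus 12.6-fold higher than in the next highest. It was listed at 0 in 4 circulating groups and at 0.00260 FPKM in the other. The deposited locus of Col1a2, chr4:31041069-31625011, is shared with 3 other gene models, among them Slc25a13 and Samd9l, so it is not the extent of Col1a2 alone and its reads may be shared.

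Decorin and matrix Gla protein had the same highest group. Dcn (chr7:38783713-38823738) was at 1.23, 12.2, 2.36, 3.99 and 4.81 FPKM in the kidney groups, in the order above, and was listed at 0 in all 5 circulating groups; it was the only member at 0 throughout circulating cells. Mgp (chr4:235113771-235117160) reached 101.5, 310.5, 68.7, 38.8 and 66.2 FPKM in kidney and at most 0.0752 FPKM in circulating cells. At 310.5 FPKM Mgp ranked 342 among the 14949 gene models with a symbol in its highest group. Its levels in SS/MCW and SS/CRL rats on HS overlapped over tables (62.0 to 70.4 and 59.1 to 67.7 FPKM), while the other kidney groups stood apart from each other.

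Sparc varied least of the members across the kidney groups, with a highest level 1.67 times its lowest. Sparc (chr10:40573517-40595276), a collagen-binding matricellular protein, was at 147.4, 147.6, 131.5, 88.5 and 143.9 FPKM in kidney, and at 8.82, 6.72, 7.43, 7.54 and 7.47 FPKM in circulating cells. Its highest 4 kidney groups overlapped over tables in neighbouring pairs, and only SS/CRL on LS, at 80.9 to 90.2 FPKM, lay below the rest. Fn1 (FN1 in the files, chr9:78674436-78743407) was at 8.10, 12.3, 12.8, 3.32 and 6.07 FPKM in kidney and at 2.25, 2.25, 2.23, 2.33 and 3.01 FPKM in circulating cells, which made it the member with the smallest gap between the tissues. Both Fn1 values of SS/MCW rats at 10 weeks overlapped over tables, and both SS/CRL groups lay below all SS/MCW groups.

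The 2 thrombospondins differed in level and in order. Thbs1 (chr3:116415714-116423900), which can activate latent TGF-beta, was at 49.4, 131.9, 128.1, 81.1 and 145.0 FPKM in kidney and at 0.538, 0.228, 0.194, 0.172 and 0.260 FPKM in circulating cells. Thbs2 (chr1:57842345-57871988) was at 4.97, 8.20, 3.62, 2.00 and 6.16 FPKM in kidney and at most 0.00590 FPKM in circulating cells. The highest 3 Thbs1 groups overlapped over tables in neighbouring pairs, whereas no kidney groups of Thbs2 did. Timp3 was the most abundant member, at 197.0, 534.6, 342.4, 326.0 and 621.2 FPKM in kidney, and at 0.0144 to 0.0699 FPKM in circulating cells. It ranked 171 among gene models with a symbol in SS/CRL rats on HS. SS/MCW on HS and SS/CRL on LS overlapped over tables for Timp3. The deposited Timp3 locus, chr7:23553825-23958150, is shared with 3 other models including Syn3, a gene in which Timp3 lies, so reads between them may be split.

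**Figure D1:**
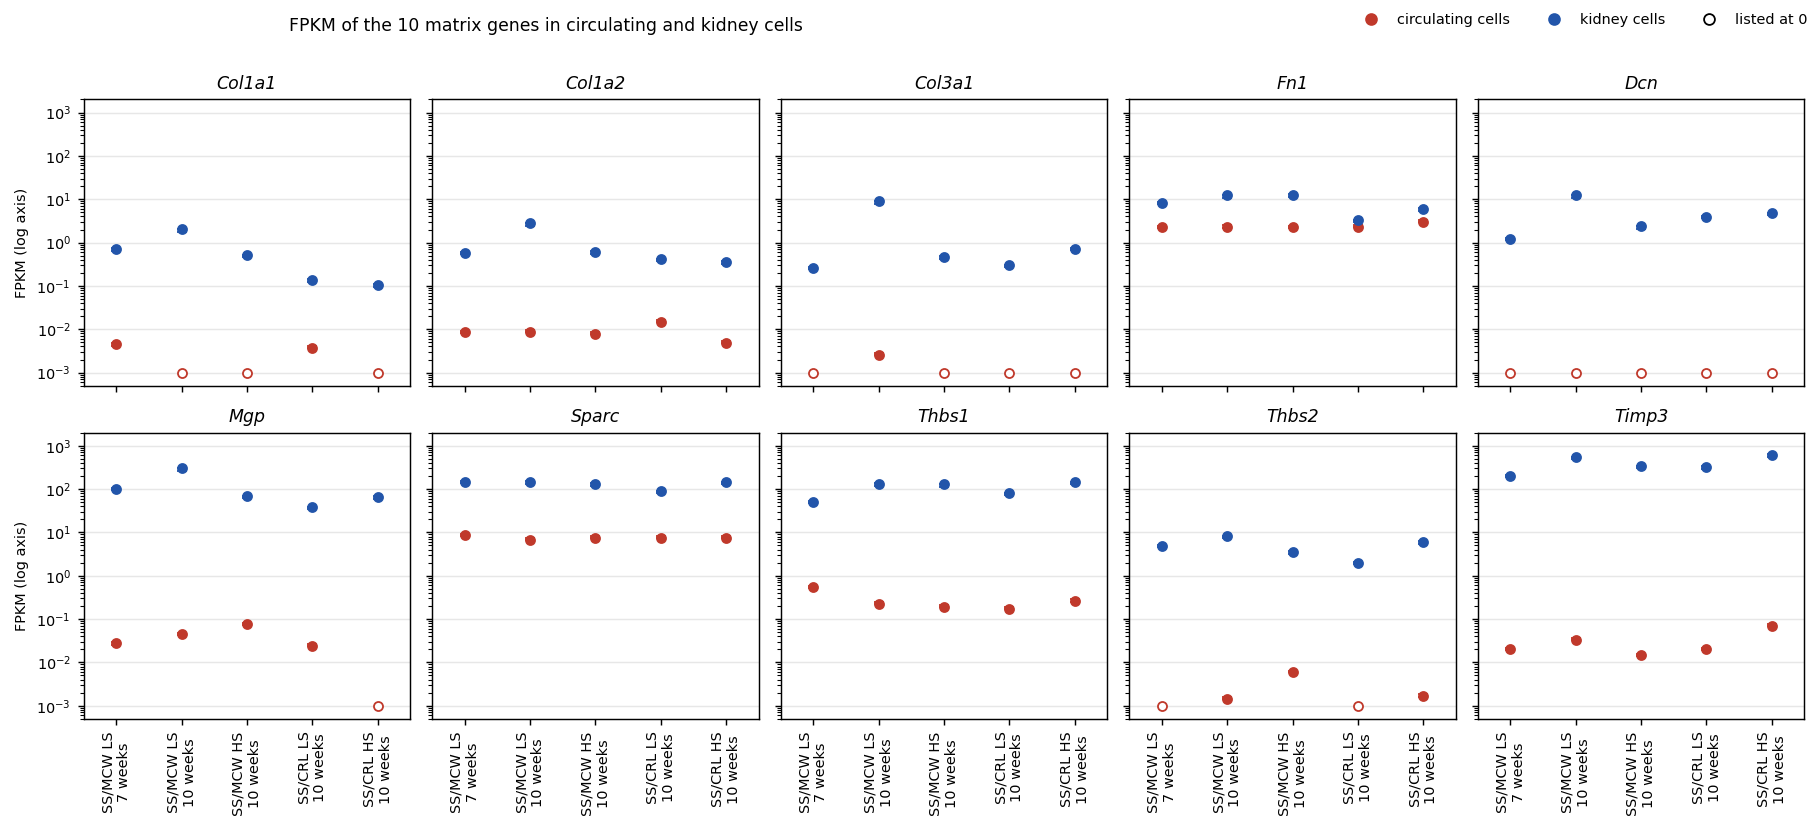
FPKM on a log axis of each of the 10 genes in circulating (red) and kidney (blue) cells of the 5 groups of rats; points are medians over tables, bars (mostly smaller than the points) run from the lowest to the highest table, and open points mark values listed at 0. Kidney points lie above circulating points for all 10 genes, and Col1a1, Col1a2, Col3a1, Dcn, Mgp and Thbs2 have their highest point in kidney cells of SS/MCW rats on LS at 10 weeks.

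Of the 10 members, 6 were highest in kidney cells of SS/MCW rats on LS at 10 weeks by a margin that no table crossed, namely Col1a1, Col1a2, Col3a1, Dcn, Mgp and Thbs2. Sparc was also highest there, but at 147.6 against 147.4 FPKM at 7 weeks. Over the next highest kidney group that group was 12.6-fold higher for Col3a1, 4.55-fold for Col1a2, 3.06-fold for Mgp, 2.89-fold for Col1a1, 2.55-fold for Dcn and 1.33-fold for Thbs2. Thbs1 and Timp3 were highest in SS/CRL rats on HS, and Fn1 in SS/MCW rats on HS. These orders are descriptions of 1 value per group and carry no test. The share of all gene models that are highest in SS/MCW kidney cells on LS at 10 weeks was not computed. The count of 6 is therefore no result about matrix genes. Genes outside the lists could have the same highest group, such as Zfand4, at 31.1 FPKM there and 3.56 to 7.99 FPKM in the other kidney groups.

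The comparison of kidney with circulating cells asks what sets the cells isolated from the organ apart from those in blood of the same groups of rats. By medians over tables, all 10 members had a higher value in every kidney group than in any circulating group. Over tables only Fn1 overlapped, with SS/CRL on LS in kidney (3.01 to 3.38 FPKM) against SS/CRL on HS in circulating cells (2.92 to 3.34 FPKM). For how many of all gene models every kidney value lies above every circulating value was not counted, so this order is not particular to the members. Of 50 pairs of member and comparison 39 were tested, 28 were called higher in kidney and none was called lower. Dcn, Sparc, Thbs1 and Timp3 were called higher in all 5 comparisons, Fn1 in 4, Thbs2 in 2, and Col1a1 and Mgp in 1 each. Col1a2 and Col3a1 were tested once and not called.

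By group of rats, 6 of 8 tested members were called higher in SS/MCW rats at 7 weeks, where 32.9% of all gene models tested were called higher in kidney. The count was 6 of 10 in SS/MCW rats on LS at 10 weeks against 26.6% of all models, and 5 of 7 on HS against 30.6%. It was 5 of 7 in SS/CRL rats on LS against 31.5%, and 6 of 7 on HS against 30.6%. The median log2 fold change of the tested members that had a value above 0 in both tissues was 6.73, 10.16, 9.02, 8.61 and 8.81 in that order, and that of all such gene models 0.21, 0.23, 0.20, 0.37 and 0.44. A gene that is nearly absent from circulating cells enters these counts mostly through its kidney level, so the counts describe the tissues and are no support for the choice of genes.

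Sparc, which circulating cells also expressed, rose from 9.29 to 139.2 FPKM at 7 weeks, a log2 fold change of 3.91 ± 0.40 (standard error) with q = 0.000141 in the authors' deposited table. Thbs1 rose from 0.290 to 130.5 FPKM in SS/CRL rats on HS, a log2 fold change of 8.81 ± 1.04 with q = 0.000144 in the authors' deposited table. Fn1 rose from 2.49 to 10.9 FPKM in SS/MCW rats on LS at 10 weeks, with q = 0.000221 in the authors' deposited table. In SS/CRL rats on LS it was at 2.55 FPKM in circulating and 3.01 FPKM in kidney cells, with q = 0.468 in the authors' deposited table. Fn1 thus had the one kidney group that came near the circulating level. Mgp was called in SS/CRL rats on HS alone, where the circulating value was 0. In the other 4 groups circulating Mgp was listed at 0.0266 to 0.0825 FPKM and the q-value in the authors' deposited table lay between 0.0658 and 0.126, although kidney Mgp was at 35.0 FPKM or more. Calls of members with a circulating value of 0 carry no fold change or statistic in the tables; there were 15 such pairs, of which 9 were called.

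Within kidney cells, salt was followed in both rat types between LS and HS at 10 weeks. In SS/MCW rats 9 of the 10 members had the lower value on HS and 1 passed the test. Mgp fell from 312 FPKM on LS to 68.7 on HS, a log2 fold change of -2.18 ± 0.95 (standard error) with q = 0.0179 in the authors' deposited table. It was the only member called, 1 of 10 tested, where 0.175% of all gene models tested were called lower on HS. Col3a1 went from 9.15 to 0.476 FPKM with q = 0.0527 in the authors' deposited table, so the largest fold among the members did not pass. Dcn was at 12.3 and 2.36 FPKM with q = 0.173 in the authors' deposited table, and Col1a1 at 2.02 and 0.503 FPKM with q = 0.290 there. The values of Col1a2 (2.82 and 0.617 FPKM), Thbs2 (8.36 and 3.62 FPKM) and Timp3 (545.9 and 342.4 FPKM) were also lower on HS without a call.

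Fn1 was the only member with the higher value on HS, at 12.4 FPKM on LS and 12.8 on HS. Thbs1 (134.7 and 128.1 FPKM) and Sparc (150.4 and 131.5 FPKM) had slightly lower values on HS. The standard errors of these log2 fold changes were 0.78, 1.18 and 0.69, so that changes of that size could not be seen. The median log2 fold change of the 10 members was -1.60, and that of all gene models tested was -0.06. Of the 11 fibroblast and mural markers 10 also had the lower value on HS, and the median over the 9 tested was a log2 fold change of -1.10; Cuffdiff called none of the 9, with 2 at an unadjusted p under 0.05. Their summed level, 69.1 FPKM on LS and 62.0 on HS, included the smooth muscle genes Tagln (27.8 and 27.4 FPKM) and Myh11 (9.01 and 16.6 FPKM). All 10 endothelial markers had the lower value on HS, with a summed level of 221.3 and 139.3 FPKM and a median log2 fold change of -0.84; Cuffdiff called none, with 4 at an unadjusted p under 0.05. Over the same groups the summed level of 13 T cell markers was 563 and 985 FPKM and that of 10 macrophage markers 760 and 1506 FPKM; the part of these cell types in the fall of Mgp was not tested.

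In SS/CRL rats 8 of the 10 members had the higher value on HS and 3 passed the test. Thbs2 rose from 2.04 to 6.16 FPKM, a log2 fold change of 1.59 ± 0.63 (standard error) with q = 0.00171 in the authors' deposited table. Thbs1 rose from 82.8 to 145.0 FPKM, by 0.81 ± 0.45 with q = 0.0106 in the authors' deposited table, and Sparc from 90.2 to 143.9 FPKM, by 0.67 ± 0.41 with q = 0.0270 there. These were 3 of 7 tested members, where 2.44% of all gene models tested were called higher on HS. Timp3 was at 332.5 and 621.2 FPKM with q = 0.128 in the authors' deposited table, Fn1 at 3.38 and 6.07 FPKM with q = 0.158, Mgp at 39.5 and 66.2 FPKM with q = 0.178, and Dcn at 4.07 and 4.81 FPKM with q = 0.810. The 3 collagen chains were below 1 FPKM in both groups and were not tested.

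The median log2 fold change of the 7 tested members was 0.81, and that of all gene models tested was 0.05. Endothelial markers moved beside them, with 4 of 10 called higher on HS, none lower, and a summed level of 152.9 FPKM on LS and 255.8 on HS. Esam, a junction protein of endothelial cells, rose from 71.2 to 125.2 FPKM, with q = 0.00171 in the authors' deposited table. Of 7 proximal tubule markers, 4 were called lower, and their summed level was 9920 FPKM on LS and 5194 on HS. Summed fibroblast and mural markers were at 20.5 and 27.6 FPKM, with none of 5 tested called and 3 at an unadjusted p under 0.05. The part of these cell types in the rises was not tested.

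The salt effects of the rat types were set against each other for the 7 members tested in both. The difference in log2 fold change, SS/MCW minus SS/CRL, was -2.93 for Mgp (95% interval -5.12 to -0.73) and -2.80 for Thbs2 (-4.90 to -0.71), with unadjusted p-values of 0.00901 and 0.00875. With Benjamini-Hochberg adjustment over 16429 gene models neither passed, at an adjusted p of 1.00 for each; by this test none of the 16429 gene models passed and 109 had an unadjusted p under 0.05. The test takes standard errors from the deposited test statistic. With these standard errors the interval of the difference included 0 for Fn1, Dcn, Sparc, Thbs1 and Timp3, and the widest, that of Timp3, ran from -5.40 to 2.25. With standard errors from the deposited p-values, Mgp and Thbs2 passed, at adjusted p-values of 0.00585 and 0.00946, among 60 gene models that passed. With the latter the intervals of Dcn (-4.29 to -0.96) and Sparc (-1.65 to -0.08) did not include 0, and their adjusted p-values were 0.192 and 0.627.

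The comparison of the rat types on LS chow asks how the colonies differ without a salt load. In kidney cells at 10 weeks all 10 members had the lower value in SS/CRL rats, and 4 of them passed the test. Col3a1 fell from 9.11 FPKM in SS/MCW to 0.299 in SS/CRL, a log2 fold change of -4.93 ± 1.64 (standard error) with q = 0.00524 in the authors' deposited table. Mgp fell from 309 to 38.8 FPKM, with a log2 fold change of -2.99 ± 0.98, and Thbs2 from 8.07 to 2.00 FPKM, with one of -2.01 ± 0.86, both at q = 0.00524 in the authors' deposited table. Fn1 fell from 12.1 to 3.32 FPKM, with a log2 fold change of -1.87 ± 0.88 and q = 0.00920 in the authors' deposited table. These were 4 of 10 tested members, where 0.444% of all gene models tested were called lower in SS/CRL.

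Dcn was at 12.2 FPKM in SS/MCW and 3.99 in SS/CRL, with q = 0.0596 in the authors' deposited table. Col1a1 was at 1.99 and 0.138 FPKM and Col1a2 at 2.80 and 0.415 FPKM without a call. Sparc (145.2 and 88.5 FPKM), Thbs1 (129.6 and 81.1 FPKM) and Timp3 (525.0 and 326.0 FPKM) had lower values in SS/CRL and did not pass. The median log2 fold change was -1.94 over the members and -0.01 over all gene models tested. Summed fibroblast and mural markers were at 69.1 FPKM in SS/MCW and 20.5 in SS/CRL. The smooth muscle gene Tagln, at 27.8 and 5.68 FPKM, was the largest part of the sum in SS/MCW. Of the 11 markers 10 had the lower value in SS/CRL, and Mcam, a surface protein of mural and endothelial cells, was called. The fibroblast marker Pdgfra went the other way, at 1.78 FPKM in SS/MCW and 2.73 in SS/CRL. Proximal tubule markers stood at a summed 4238 FPKM in SS/MCW and 9920 in SS/CRL. Macrophage markers were at a summed 760 FPKM in SS/MCW and 534 in SS/CRL, with 8 of 10 lower and 2 called lower. Endothelial markers were at 221.3 and 152.9 FPKM, with 8 of 10 lower and 1 called lower. T cell markers were at 563 and 326 FPKM, with 11 of 13 lower and 1 called lower. Thick limb and distal nephron markers were at 4851 and 1560 FPKM, with 6 of 7 lower and none called. Whether these cell types account for any of the 4 calls was not tested.

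On HS 6 of the 10 members had the higher value in SS/CRL and 4 the lower. Only Fn1 was called, 1 of 7 tested, where 2.97% of all gene models tested were called lower in SS/CRL. Fn1 fell from 13.2 FPKM in SS/MCW to 6.23 in SS/CRL, a log2 fold change of -1.08 ± 0.59 (standard error) with q = 0.00149 in the authors' deposited table. Mgp was at 70.4 and 67.7 FPKM, Sparc at 134.5 and 147.4 FPKM, and Thbs1 at 129.7 and 148.6 FPKM. Dcn (2.40 and 4.92 FPKM), Thbs2 (3.67 and 6.32 FPKM) and Timp3 (346.3 and 635.8 FPKM) had the higher value in SS/CRL and did not pass. The median log2 fold change was 0.20 over 7 tested members and 0.12 over all gene models tested. Macrophage markers, with 8 of 10 called lower in SS/CRL and summed levels of 1506 and 379 FPKM, and T cell markers, with 10 of 13 called lower and summed levels of 985 and 248 FPKM, moved beside Fn1. Of the 11 fibroblast and mural markers 8 had the lower value in SS/CRL, with 1 of 7 tested called lower, a median log2 fold change of -1.39 and summed levels of 62.0 and 27.6 FPKM. Pdgfra was among the 3 with the higher value, at 0.788 and 1.49 FPKM. All 5 mesangial markers had the lower value in SS/CRL, with 1 of 3 tested called lower. The highest of them, Gata3, was at 29.2 and 15.9 FPKM here and at 42.0 to 52.8 FPKM in circulating T cells. That list therefore does not mark mesangial cells alone, and its other genes were at 0.125 to 4.37 FPKM in SS/MCW on HS. The part of these cell types in the fall of Fn1 was not tested. Fn1 was the one member called in both comparisons of the rat types.

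With age, from 7 to 10 weeks on LS, 9 of the 10 members had the higher value in SS/MCW kidney cells at 10 weeks and 2 passed the test. Dcn rose from 1.30 to 12.3 FPKM, a log2 fold change of 3.25 ± 1.28 (standard error) with q = 0.00983 in the authors' deposited table. Col3a1 rose from 0.270 to 9.15 FPKM, by 5.09 ± 1.60 with q = 0.0255 there. They were 2 of 10 tested members, where 0.774% of all gene models tested were called higher at 10 weeks. Thbs1 was at 52.2 and 134.2 FPKM with q = 0.0632 in the authors' deposited table, Mgp at 107.3 and 311.9 FPKM with q = 0.180, and Timp3 at 208.1 and 544.2 FPKM with q = 0.710. Sparc was at 155.7 and 149.9 FPKM, the only member with a lower value at 10 weeks. The median log2 fold change was 1.42 over the members and 0.09 over all gene models tested. Macrophage markers were at a summed 318 FPKM at 7 weeks and 760 at 10 weeks with 3 of 10 called higher, and fibroblast and mural markers at 58.1 and 69.1 FPKM with none of 10 tested called and 1 at an unadjusted p under 0.05. T cell markers were at a summed 260.3 FPKM at 7 weeks and 562.5 at 10 weeks. Of these, 12 of 13 had the higher value at 10 weeks and 1 of 12 tested was called higher. Thick limb and distal nephron markers were at a summed 15287 FPKM at 7 weeks and 4851 at 10 weeks, and proximal tubule markers at 2195 and 4238 FPKM. Platelet markers were at a summed 14.5, 53.7, 24.96, 30.4 and 35.1 FPKM in the kidney groups, the same order of groups as Dcn. Pf4 was the largest part of that sum, and no other marker of the list had that order. Gp1bb was highest at 7 weeks (3.94 FPKM) and Itga2b in SS/CRL on LS (7.84 FPKM), and Ppbp was at 0 in all kidney groups. None of 4 tested was called by Cuffdiff with age, with 3 at an unadjusted p under 0.05. The part of any of these cell types in the rises was not tested.

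The comparisons of salt in SS/MCW, of rat type on LS and of age all contain the kidney cells of SS/MCW rats on LS at 10 weeks. A high value of that 1 group lowers the ratio in the first pair and raises it in the age comparison, so the values of these 3 comparisons are not independent. They hold 7 of the 11 member calls of the 5 kidney comparisons, and the other 4 calls are those of salt in SS/CRL and of rat type on HS. Whether 1 of the 4 libraries of that group sets its Col3a1, Dcn and Mgp levels cannot be seen from a single value per group.

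**Figure D2:**
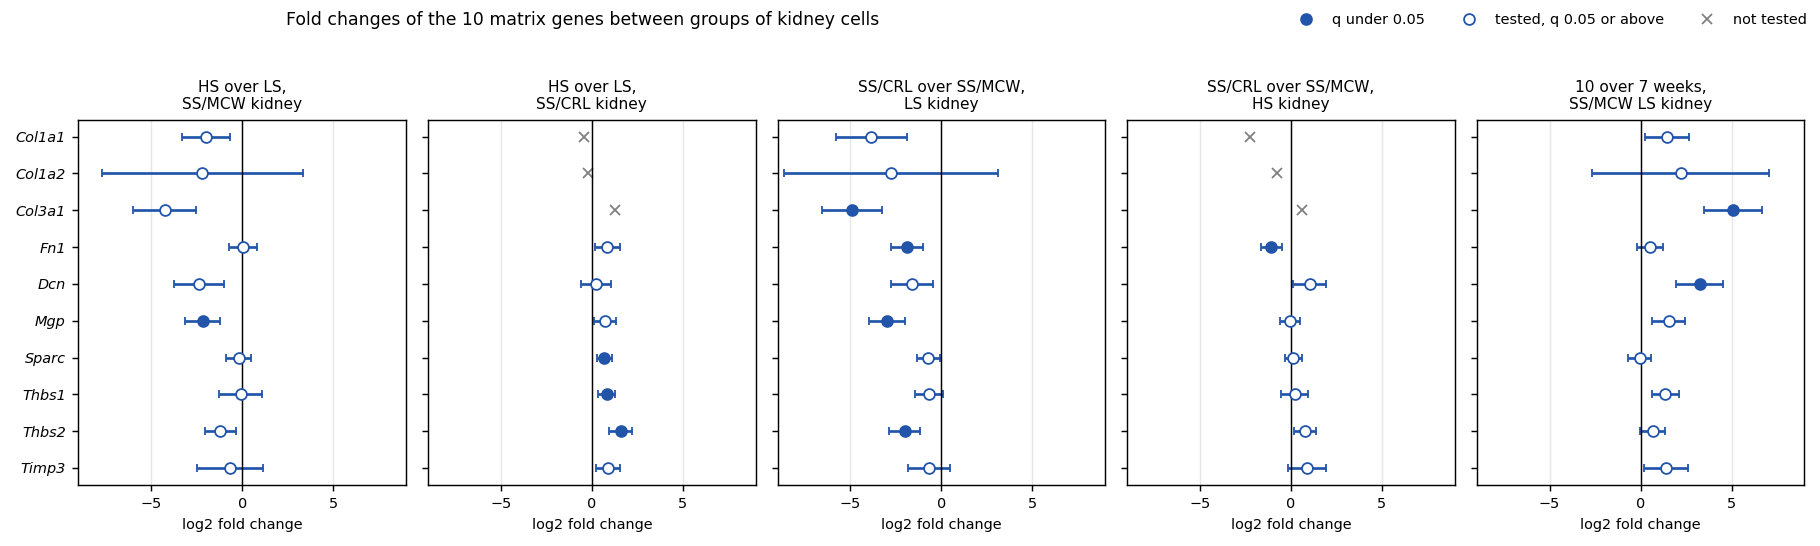
Log2 fold change of each of the 10 genes in the 5 comparisons between groups of kidney cells; bars are 1 standard error (the fold change over the authors' test statistic), filled points were called at a q under 0.05 and crosses were not tested. The calls are 1 lower in the SS/MCW salt panel, 3 higher in the SS/CRL salt panel, 4 lower for rat type on LS, 1 lower for rat type on HS and 2 higher with age.

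**Figure D3:**
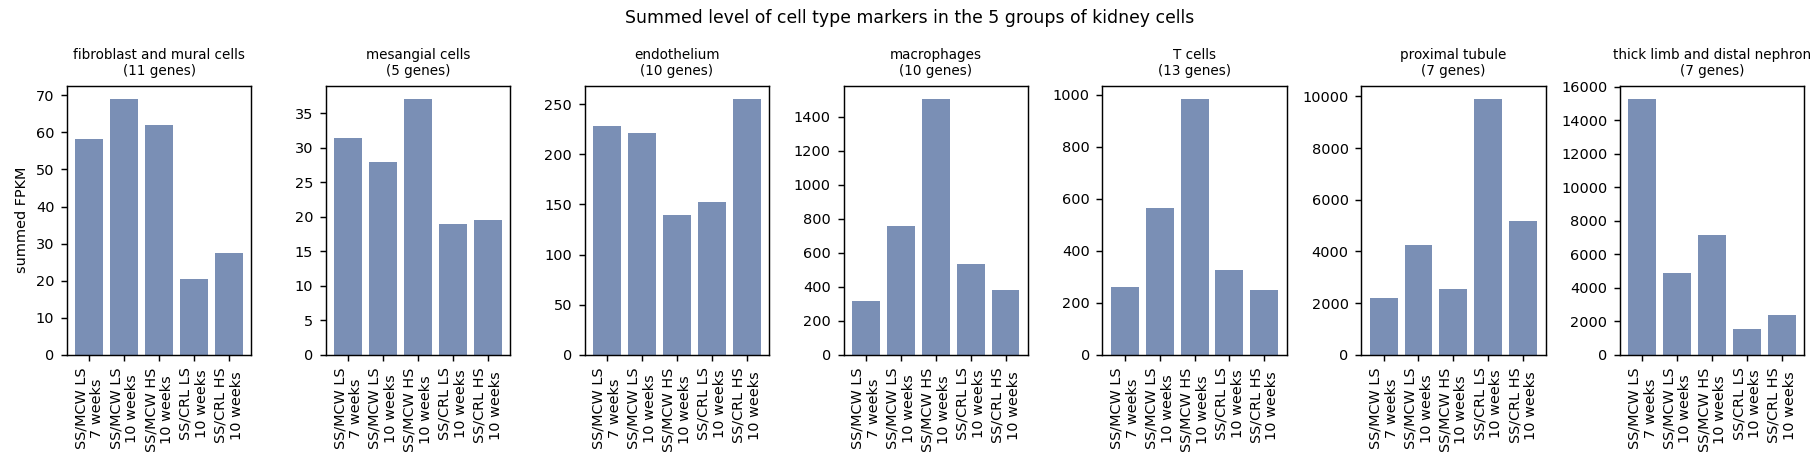
Summed FPKM of the marker lists, other than those of platelets and podocytes, in the 5 groups of kidney cells, each panel with its own axis from 0. Fibroblast and mural markers are at 58.1 to 69.1 FPKM in the 3 SS/MCW groups and at 20.5 and 27.6 FPKM in SS/CRL, macrophage and T cell markers are highest in SS/MCW on HS, and proximal tubule markers in SS/CRL on LS.

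In circulating cells 7 of the 10 members stayed under 0.1 FPKM in all groups, and only Fn1 and Sparc could be tested throughout. Thbs1, an abundant protein of platelet granules, was the only member called in 11 tests. It fell from 0.508 FPKM at 7 weeks to 0.224 at 10 weeks in SS/MCW rats on LS, a log2 fold change of -1.18 ± 0.65 (standard error) with q = 0.0209 in the authors' deposited table. That was 1 of 3 tested members, where 0.918% of all gene models tested were called lower at 10 weeks. The call was lost when gene models had to reach 1 FPKM, which Thbs1 did not.

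Platelet genes were lower beside it. Of 8 platelet markers 5 were called lower at 10 weeks, none higher, and the summed level was 127.9 FPKM at 7 weeks and 34.0 at 10 weeks, with none of the 8 at 0. Pf4, a platelet chemokine, fell from 96.9 to 25.9 FPKM, and Gp1bb, a chain of the platelet receptor for von Willebrand factor, from 7.27 to 1.87 FPKM, both with q = 0.00690 in the authors' deposited table. Sparc, also found in platelets, was at 8.35 and 6.62 FPKM with q = 0.471 there. The part of platelets in the fall of Thbs1 was not tested.

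In the other circulating comparisons no member was called by Cuffdiff, and 2 members were tested in each. The background was 0.107% of gene models called for salt in SS/MCW, 0.670% for salt in SS/CRL, 0.541% for rat type on LS and 0.241% for rat type on HS. The smallest q of a member there in the authors' deposited table was 0.544, for Fn1 with salt in SS/CRL at 2.33 and 3.01 FPKM, whose unadjusted p of 0.0499 was the only 1 of these 8 under 0.05. Pf4 and Gp1bb were called higher on HS in the same comparison, where Thbs1 was at 0.172 and 0.260 FPKM and was not tested. The difference in salt effect between the rat types was -0.37 for Fn1 (95% interval -1.56 to 0.81) and 0.17 for Sparc (-0.83 to 1.17), neither of which passed among 6 gene models that did.

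**Figure D4:**
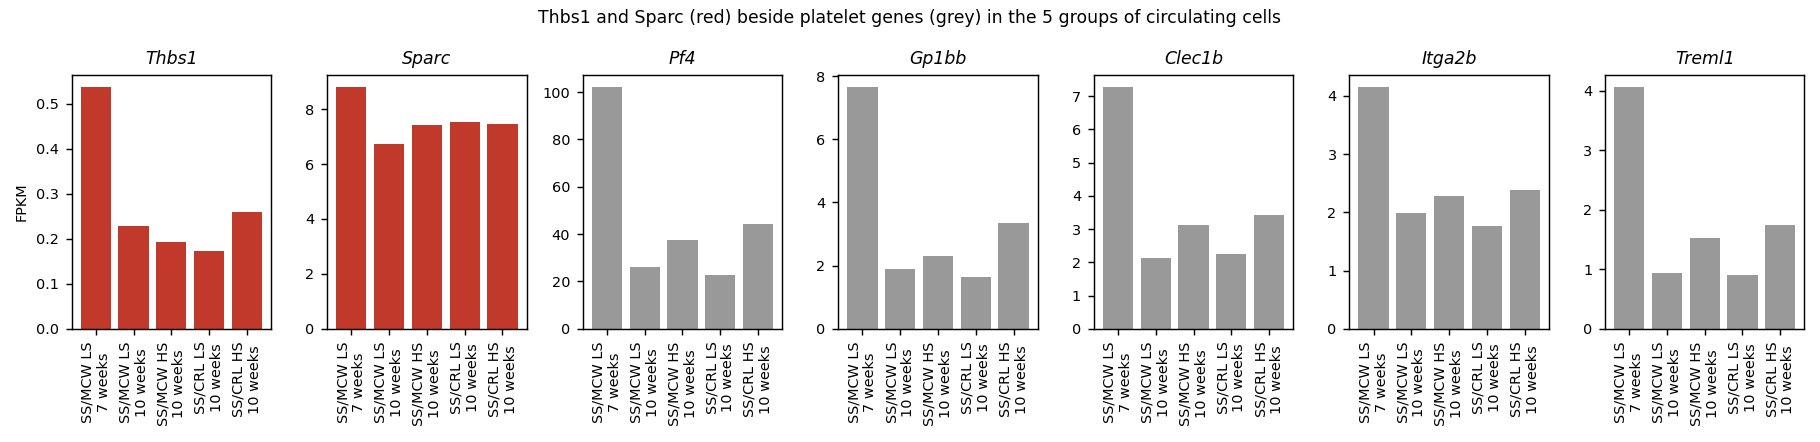
FPKM of Thbs1 and Sparc (red) and of the 5 platelet genes called lower with age (grey) in circulating cells of the 5 groups of rats, each panel with its own axis from 0. Thbs1 is at 0.538 FPKM at 7 weeks and at 0.260 or less in the other groups, and the platelet genes are also highest at 7 weeks, while Sparc runs from 6.72 to 8.82 FPKM.

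Beyond the members, 78 further matrix genes were listed in 7 groups (collagens, basement membrane, adhesive glycoproteins and elastic fibres, proteoglycans and matricellular proteins, collagen processing, proteases and their inhibitors, and the TGF-beta pathway), of which 75 matched a gene model. In kidney against circulating cells 29 to 39 of the 56 to 64 tested were called higher and 4 to 8 lower, where 26.6% to 32.9% of all gene models tested were called higher. Those lower were mostly of the TGF-beta pathway, whose receptors and Smads T cells also use. Tgfb1, the main profibrotic cytokine, was called lower in kidney in all 5 comparisons, with levels of 16.1 to 69.4 FPKM in kidney and 87.6 to 115.3 FPKM in circulating cells.

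With salt in SS/CRL kidney cells, 8 of 54 tested further matrix genes were called higher and none lower, where 2.44% of all gene models tested were called higher, with a median log2 fold change of 0.42 against 0.05 for all gene models tested. Bgn, the proteoglycan biglycan, rose from 134.2 to 284.9 FPKM, with q = 0.00171 in the authors' deposited table. Of 12 basement membrane genes 3 were called, namely Nid2, from 83.3 to 143.4 FPKM, the perlecan gene Hspg2, from 32.4 to 58.2 FPKM, and the laminin chain Lamb1, from 20.4 to 31.6 FPKM. The collagen chaperone Serpinh1 rose from 64.6 to 101.2 FPKM, the collagen lysyl hydroxylase Plod2 from 18.1 to 34.2 FPKM, and the growth factor Ctgf from 23.7 to 38.2 FPKM. Plat, the tissue plasminogen activator, rose from 63.4 to 123.5 FPKM. Of the 16 genes of the TGF-beta pathway 15 were tested and none was called by Cuffdiff, with 4 at an unadjusted p under 0.05.

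Elsewhere few further matrix genes were called. With salt in SS/MCW the elastic fibre protein Mfap4 was called lower, from 1.63 FPKM to a listed 0, with the other 61 tested not passing. Between the rat types on LS Cuffdiff called none of 58 tested, with 15 at an unadjusted p under 0.05 and a median log2 fold change of -0.54. With age it called none of 63, with 14 at an unadjusted p under 0.05 and a median of 0.35. On HS the calls included the proteoglycan Vcan (4.60 and 1.58 FPKM) and Tgfb1 (71.6 and 18.7 FPKM), lower in SS/CRL, and the prolyl hydroxylase P4ha2 (11.1 and 21.7 FPKM) higher. In circulating cells 1 call was made, Spp1 in SS/CRL on HS, from a listed 0 to 0.954 FPKM. Spp1 was at 2814 to 11493 FPKM in kidney groups. In the same circulating group the thick limb marker Umod was at 1.93 FPKM, against at most 0.0284 FPKM in the other circulating groups. The part of kidney transcript in this call was not tested.

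For the 8 members with at least 5 FPKM in some group, the gene models with the most similar profile were found by Pearson's r of log2(FPKM + 1). Over the 10 groups r mostly reflects the gap between the tissues, which many genes share. Nid2 was among the closest to Timp3 (r = 1.00), with Kalrn (r = 1.00). Psca and Evpl were closest to Thbs1, Mboat2 and Ckap4 to Sparc, Lrrc58 and Rarres1 to Mgp, Tf and Maff to Fn1, Taco1 and Wars to Dcn, the model of Aak1, Gfpt1 and Nfu1 to Thbs2, and Zfp865 and Zfand4 to Col3a1. Within the 5 kidney groups the closest were Usp14 and Zfp865 to Col3a1, 9330182L06Rik and Map2k1 to Dcn, ANAPC11 and Tk1 to Mgp, and Aig1 and Ap2b1 to Fn1. They were Calm2 and RGD1566265 to Sparc, Lypd2 and Myo5c to Thbs1, Polb and 1190007I07Rik to Thbs2, and Ptges3 and Zc3h14 to Timp3. Zfp865 was the only gene close to a member in both sets of groups, at 23.0 FPKM in SS/MCW on LS at 10 weeks and 4.54 to 6.90 FPKM in the other kidney groups. With 5 or 10 points and many candidate models, a high r is found for almost any profile, and these names describe the tables only.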

How the data were processed

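The submitters sequenced RNA of isolated T cells from TruSeq libraries, per the labels' protocols. The tools named are Trim Galore 0.2.5 and cutadapt, TopHat2 2.1.1 and TopHat on rn5, Cufflinks 2.2.1 and Cuffdiff, per the submitters' processing notes. Whether counting used strand is not given in the sources used here. The 15 deposited tables give FPKM per group, computed by the authors with Cuffdiff, per the file headers. The deposited test statistic is a Cuffdiff score, and the p-value and q-value are those the authors deposited; the smallest p is 5e-05. Columns of samples that could not be mapped numbered 0. No value per library is used here, so library depth and its precision are unknown.

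The FPKM of each pair of groups gave the log2 fold change, since part of the deposited fold column had been altered by a spreadsheet; no fold is given where a group is at 0. A call is q under 0.05 with a completed test. Standard errors are the fold change on the log2 scale over the statistic. Salt effects of the rat types were compared with a normal z, adjusted by Benjamini-Hochberg. The test was run on data simulated with the same standard errors, which checks the calculation and cannot show whether those errors are right. The settings varied were a stricter q (under 0.01), at least 1 FPKM in the higher group (p then readjusted), a normal p from the statistic with and without recentring on gene models of at least 5 FPKM in both groups, a pseudocount of 1, levels as medians over tables, standard errors from the deposited p, and a minimum of 5 FPKM for differences.

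The members, gene lists and markers were chosen with earlier results of these data known. Named were all members, up to 3 called genes per list and comparison with the highest FPKM in the higher group, and the 2 closest profiles per member with at least 5 FPKM; a few that this rule picks are not reported here, and Plat, Tgfb1, Spp1 and Mfap4 are given as examples or as single calls of their lists. Itga2b and Treml1 were plotted as the remaining called platelet markers. Tagln, Myh11, Pdgfra, Gata3 and Umod were chosen after their values were seen, as were the platelet markers named for kidney cells. Col6a3, Postn, Lum, Acta2, Cd163 and Lrp2 were not analysed here. Scripts used scipy 1.17.1, numpy 2.4.6 and pandas 2.3.3 in Python 3.11.15, and matplotlib 3.10.9 drew the plots.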

Additional observations from a re-analysis of the deposited data

How the results depend on the processing

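The count of 28 member calls higher in kidney stayed at 28 with a q under 0.01 and with a minimum of 1 FPKM, and was 20 when p came from a normal distribution of the statistic, recentred or not; 18 of these were shared, and calls against a value of 0 have no statistic and cannot enter. No call was lower in kidney under any of these settings. The normal p, with and without recentring, left 0 member calls for salt in SS/MCW (1 as deposited), salt in SS/CRL (3), rat type on LS (4), rat type on HS (1), age (2) and circulating cells (1); over all gene models with a statistic in the 5 kidney comparisons it called 57 against 2154. With a q under 0.01 the count was 0 for salt in SS/MCW, 1 for salt in SS/CRL (Thbs2), 4 for rat type on LS, 1 for rat type on HS, 1 for age (Dcn) and 0 in circulating cells. With a minimum of 1 FPKM the circulating count was 0 and the kidney counts kept the same genes. The difference of salt effects passed for 0 members, and for 2, Mgp and Thbs2, with standard errors from the deposited p. Of 74 member fold changes, none changed sign with a pseudocount of 1 or after recentring, and 1 did with levels as medians over tables, that of Sparc with age, to 0.0011. Leaving out the comparisons that hold SS/MCW kidney cells on LS at 10 weeks, an alternative chosen after seeing the data, left 4 of 11 kidney calls. No paired analysis was possible because the tables hold 1 value per group; for the same reason no replicate could be left out and no library checked as outlying. The unknown depth limits most the collagen chains among the members, which were under 1 FPKM in most kidney groups.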
